A study of Mus musculus with 12 samples.

Results

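Glycolysis turns glucose into pyruvate, and lactate dehydrogenase and the monocarboxylate transporters then carry the carbon on as lactate. When oxygen is short, prolyl hydroxylases of the Egln family no longer mark the factor HIF-1 alpha for destruction. The factor then binds the hypoxia response element, whose core is ACGTG or GCGTG, in front of many glycolytic genes and of targets such as Vegfa, Adm and Bnip3. Smooth muscle of the aortic wall uses glycolysis also when oxygen is plentiful, and macrophages raise it on activation.

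The 35 genes described here are 26 genes of glucose uptake, glycolysis, lactate handling and oxygen sensing and 9 targets of the hypoxia response. They were taken by symbol from the 34797 gene names on the array and not by their values. They have 62 of the 55681 probes, and 34 genes with 59 probes passed the filter on dim probes. The other gene, Slc16a1, which encodes a lactate transporter, was well above background on 2 DMSO arrays, 2 rapamycin arrays, 1 BA+DMSO array and no BA+rapamycin array, and it was not tested.

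RNA was measured in a 10 mm length of aorta from 12 male C57BL/6J mice aged 11 to 14 weeks, with 1 array per mouse, on day 3. DMSO mice (n = 3) are recorded as given only the vehicle dimethylsulfoxide, although their titles begin with Pre, a word the study also uses for mice before the challenge. In the next group, rapamycin mice (n = 3) received the mTOR inhibitor rapamycin at 2 mg/kg/day in that vehicle. BA+DMSO mice (n = 3) received the challenge, infused BAPN at 150 mg/kg/day together with angiotensin II at 1 µg/kg/min, and vehicle. BAPN is beta-aminopropionitrile, an inhibitor of the enzymes that crosslink collagen and elastin. BA+rapamycin mice (n = 3) received the same challenge with rapamycin. The challenge is used as a model of aortic dissection. The tissue is the whole wall with what clings to it. All 6 smooth muscle markers were well above background in every group.

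Values are log2 processed signals relative to the 75th percentile of the same array. A probe was called when limma's adjusted p was under 0.05, and each gene stands by its brightest tested probe. Array brightness, given by that percentile, ran from 221 to 280 intensity units in DMSO and from 257 to 337 in rapamycin. It was 132, 78.1 and 246 on BA+DMSO arrays 1, 2 and 3 and ran from 74.6 to 109 in BA+rapamycin. The first slide carried the 3 DMSO arrays and 1 rapamycin array, and the second carried the other 2 rapamycin arrays and the 6 challenged ones. No slide holds both DMSO and BA+DMSO arrays, so slide and challenge cannot be told apart within a slide for that comparison. In whole tissue, fewer cells of a type and less RNA per cell cannot be told apart.

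Promoter windows, which hold the 250 bases in front of a start site and a short stretch past it, show where the element's core occurs. RefSeq (GRCm38.p6) gave 47 such windows for 33 of the 35 genes, with Pkm2 matched under its present symbol Pkm. ACGTG on either strand was in 23 of the 47 windows (48.9%), against 16.6% of all 32851 promoter windows. GCGTG on either strand was in 26 of them (55.3%), against 28.2% of all windows. The windows of these genes were also richer in CpG, with a median of 14 against 6 in all windows, and in GC, with a median of 60.4% against 52.4%. The 6 windows printed belong to genes that rose (Ldha, Slc16a3), fell (Ldhb, Adm, Bnip3) or differed under rapamycin (Aldoc). They are printed 5′ to 3′ on the gene's strand, without the stretch past the start site, and end 1 base before that site. Capitals mark ACGTG or GCGTG on either strand, where CACGTG holds ACGTG on both.
Ldha (chr7:46845554-46845803, plus strand): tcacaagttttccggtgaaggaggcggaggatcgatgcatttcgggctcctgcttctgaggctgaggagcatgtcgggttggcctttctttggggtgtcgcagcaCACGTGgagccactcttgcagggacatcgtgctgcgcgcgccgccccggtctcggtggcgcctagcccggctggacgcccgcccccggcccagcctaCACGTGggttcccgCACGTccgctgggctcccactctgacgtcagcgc
Slc16a3 (chr11:120948817-120949066, plus strand): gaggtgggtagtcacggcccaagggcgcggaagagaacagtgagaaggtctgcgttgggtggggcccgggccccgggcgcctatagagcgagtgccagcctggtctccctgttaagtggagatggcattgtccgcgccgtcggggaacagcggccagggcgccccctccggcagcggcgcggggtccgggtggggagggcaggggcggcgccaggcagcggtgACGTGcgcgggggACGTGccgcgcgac
Bnip3 (chr7:138909507-138909756, minus strand): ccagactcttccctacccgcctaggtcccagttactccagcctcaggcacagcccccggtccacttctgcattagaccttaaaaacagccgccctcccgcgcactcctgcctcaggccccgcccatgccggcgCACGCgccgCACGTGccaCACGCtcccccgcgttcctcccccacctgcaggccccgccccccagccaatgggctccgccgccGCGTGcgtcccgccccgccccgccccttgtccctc
Ldhb (chr6:142507958-142508207, minus strand): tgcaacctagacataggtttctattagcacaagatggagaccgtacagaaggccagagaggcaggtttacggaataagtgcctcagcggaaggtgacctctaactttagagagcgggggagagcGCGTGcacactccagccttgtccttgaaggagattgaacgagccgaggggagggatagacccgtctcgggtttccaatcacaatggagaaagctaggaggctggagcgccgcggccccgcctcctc
Adm (chr7:110627407-110627656, plus strand): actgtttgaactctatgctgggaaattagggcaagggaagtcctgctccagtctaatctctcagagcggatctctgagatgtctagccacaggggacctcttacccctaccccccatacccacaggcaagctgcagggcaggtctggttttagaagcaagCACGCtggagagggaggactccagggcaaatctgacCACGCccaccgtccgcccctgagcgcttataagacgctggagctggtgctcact
Aldoc (chr11:78322823-78323072, plus strand): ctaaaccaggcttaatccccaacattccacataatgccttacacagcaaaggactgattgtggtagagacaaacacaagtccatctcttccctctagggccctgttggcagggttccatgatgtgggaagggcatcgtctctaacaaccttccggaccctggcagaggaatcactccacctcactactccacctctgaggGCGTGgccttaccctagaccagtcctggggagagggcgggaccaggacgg
Ldha had 3 marked stretches, among them CACGTG, and Slc16a3 had 2. Bnip3 had 4, Adm had 2 and Ldhb and Aldoc had 1 each, so matches stood before genes that rose and before genes that fell. A match of letters is a description of the window and not a measured binding site.

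To ask what the challenge did without rapamycin, BA+DMSO was compared with DMSO. Slc16a3, Eno1, Ldha, Gapdh and Pkm2 rose, by 1.42-fold to 2.16-fold. In contrast, Ldhb, Pfkm and the hypoxia targets Adm, Bnip3, Ndrg1 and Bnip3l fell, to between 0.369 and 0.724 of the DMSO level. Thus 11 of the 34 tested members were called, 5 higher and 6 lower, while 15 had an unadjusted p under 0.05, as did 35.3% of all probes. Of all 27801 tested probes 20.5% were called, 9.65% higher and 10.8% lower, and the members' count is to be read against that share. The median difference of the members was -0.09, against -0.04 over all probes. Under quantile normalization, normexp or the deposited matrix 2 members were called higher and 7 lower, beside 19.7%, 23.7% and 19.6% of all probes. The direction of each of the 11 stayed the same under all scalings, blocks and left-out arrays that were tried. With slide as a fixed block, however, none of them was called and 15 of all probes were. Without DMSO array 2 the count was 4, without DMSO array 3 it was 6, and over all left-out arrays it ran from 4 to 15. The 15, 4 higher and 11 lower, came without BA+DMSO array 3, where 38% of all probes were called. There Slc2a1, Egln1, Egln3, Gpi1 and Pfkl were called lower as well and Ldha was not called.

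**Figure D1:**
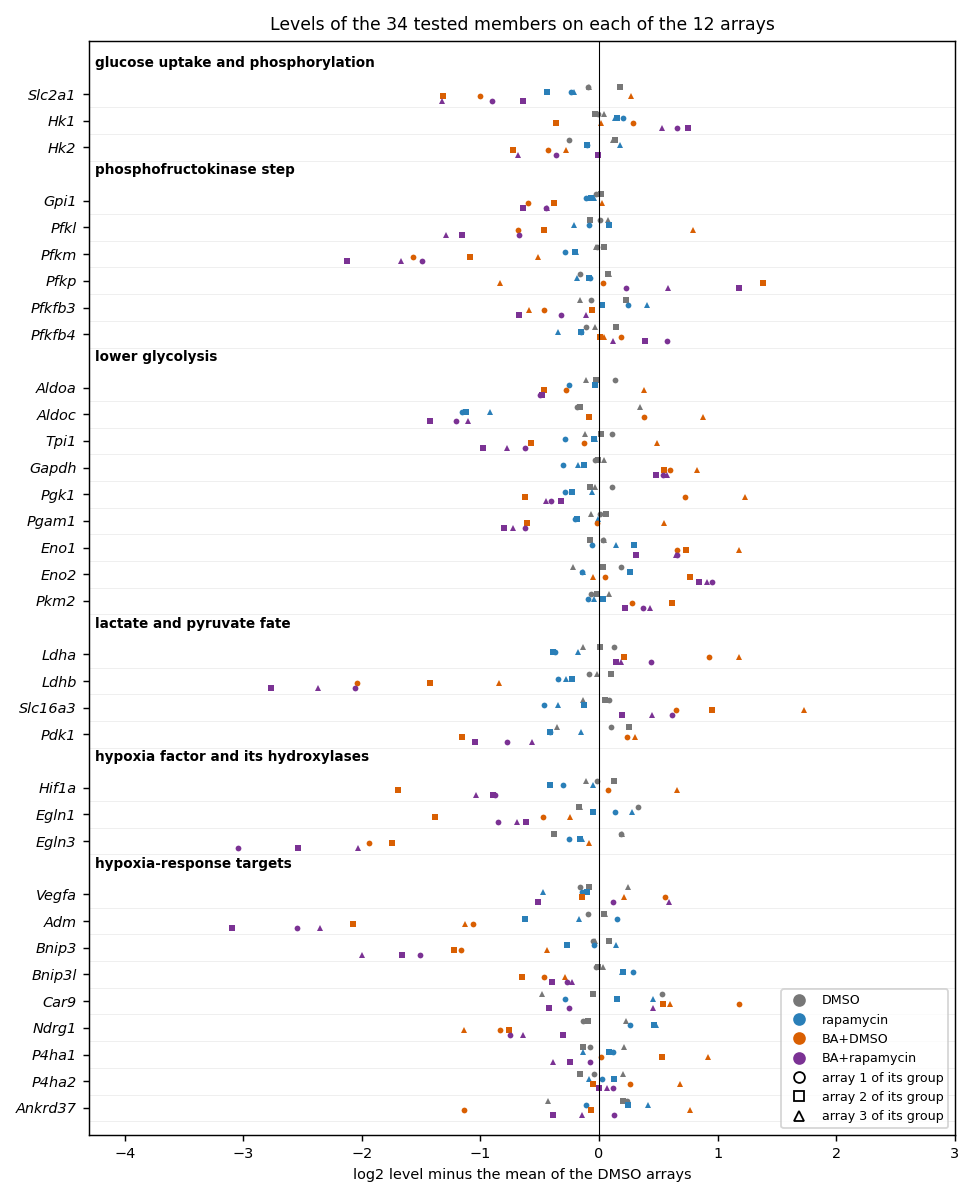
Each symbol is 1 gene on 1 of the 12 arrays, as its log2 level minus the mean of the 3 DMSO arrays, for the 34 tested genes grouped by role. DMSO and rapamycin arrays lie close together, BA+DMSO arrays (orange) spread widely, and Ldhb, Pfkm, Adm and Egln3 lie far to the left in BA+rapamycin (purple).

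Uptake and the first phosphorylation were not called. Slc2a1 encodes the main basal glucose transporter and read 2.97, 3.23 and 2.97 on the DMSO arrays and 2.05, 1.74 and 3.32 on the BA+DMSO arrays. BA+DMSO arrays 1 and 2 lay below every DMSO array and array 3 above them, with a difference of -0.69 ± 0.35 (SE, adjusted p = 0.184). Hk1, the hexokinase of most tissues, read 7.07, 7.04 and 7.12 in DMSO and 7.36, 6.71 and 7.09 in BA+DMSO. Its groups overlapped, and it differed by -0.020 ± 0.18 (adjusted p = 0.949). Hk2, the inducible hexokinase, read 0.65, 1.04 and 1.02 in DMSO and 0.48, 0.18 and 0.63 in BA+DMSO, and the groups did not overlap. Its difference of -0.48 ± 0.21 did not pass (adjusted p = 0.135).

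At the phosphofructokinase step, the muscle subunit Pfkm fell by 1.06 ± 0.25 on the log2 scale (adjusted p = 0.0155). It read 3.87, 3.93 and 3.86 in DMSO and 2.32, 2.80 and 3.37 in BA+DMSO, so every challenged array was lower, and the challenged arrays varied more. Without DMSO array 2 or without BA+DMSO array 1 it was no longer called, with an adjusted p of up to 0.0628. The liver subunit Pfkl differed by -0.12 ± 0.33 (adjusted p = 0.83). For the platelet subunit Pfkp the probes disagreed: the brightest differed by 0.19 (adjusted p = 0.791) and the other fell by 0.91 (adjusted p = 0.0439). Pfkfb3, which makes the activator of the enzyme, read 2.44, 2.73 and 2.35 in DMSO and 2.04, 2.45 and 1.92 in BA+DMSO, with overlap. It differed by -0.37 ± 0.21 (adjusted p = 0.233), and its other probe by 0.56 (adjusted p = 0.379). Pfkfb4 and Gpi1 were not called.

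Of the 9 tested genes of lower glycolysis 3 were called, all higher, beside 9.65% of all probes called higher. Eno1, the common enolase, read 5.47, 5.37 and 5.49 in DMSO and 6.10, 6.18 and 6.63 in BA+DMSO. The groups did not overlap, and the rise was 0.86 ± 0.19 (1.81-fold, adjusted p = 0.0111). Without DMSO array 2 its adjusted p was 0.0554, and the call was also lost with normexp. Gapdh, the dehydrogenase that makes the pathway's NADH, read 8.11, 8.14 and 8.19 in DMSO and 8.75, 8.69 and 8.97 in BA+DMSO, a rise of 0.66 ± 0.14 (adjusted p = 0.0107). All 3 challenged arrays exceeded all DMSO arrays, and without DMSO array 2 the adjusted p was 0.0525. The call was also lost with quantile normalization, where the difference was 0.21 (adjusted p = 0.493), with normexp (0.41, adjusted p = 0.119) and without the filter (adjusted p = 0.0584). Of the 8 tested Gapdh probes 4 were called, all higher, and the other 4 differed by 0.22 to 0.43. The brightest Gapdh probe is placed on chromosome 7 of build mm9, and the RefSeq promoter window of Gapdh is on chromosome 6, and what else that probe reads was not tested. Pkm2, the pyruvate kinase gene, read 5.71, 5.77 and 5.86 in DMSO and 6.06, 6.40 and 6.40 in BA+DMSO. It rose by 0.50 ± 0.15 (adjusted p = 0.0404), close to the threshold, and the call was lost when any 1 of 8 arrays was left out, with an adjusted p of up to 0.132. Quantile normalization, normexp, the deposited matrix and testing without the filter lost the Pkm2 call as well. Every BA+DMSO array was still above every DMSO array.

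Other genes of lower glycolysis split by array. Pgk1, the first enzyme to yield ATP, read 4.50, 4.31 and 4.36 in DMSO and 5.11, 3.76 and 5.61 in BA+DMSO. Arrays 1 and 3 lay above and array 2 below all DMSO arrays, and the difference was 0.44 ± 0.36 (adjusted p = 0.412). Its probe is placed on chromosome 3 of mm9, whereas its RefSeq window is on chromosome X. Aldoa, the main aldolase of muscle, read 8.25, 8.09 and 7.998 in DMSO and 7.84, 7.64 and 8.49 in BA+DMSO, a difference of -0.12 ± 0.21 (adjusted p = 0.714). Tpi1 and Pgam1 differed by -0.071 and -0.026. In each of these 3 genes BA+DMSO array 3 was the highest and array 2 the lowest of the group. Eno2 and Aldoc, the neuronal enolase and the brain aldolase, were not called.

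The genes that decide the fate of pyruvate moved most unequally. Ldha, the subunit of lactate dehydrogenase that favours lactate, read 6.64, 6.52 and 6.38 in DMSO and 7.44, 6.72 and 7.69 in BA+DMSO. All challenged arrays were above all DMSO arrays, and the rise of 0.77 ± 0.23 (1.71-fold) had an adjusted p of 0.0391. It was also close to the threshold: the call was lost when any 1 of 9 arrays was left out, with an adjusted p of up to 0.118, and it was lost with title date as a random block (adjusted p = 0.053). Quantile normalization, normexp, the deposited matrix and testing without the filter each lost the Ldha call too. Of its 3 probes 2 were called. Ldhb, the subunit of heart and oxidative tissue, read 4.79, 4.98 and 4.86 in DMSO and 2.83, 3.45 and 4.04 in BA+DMSO. It fell by 1.44 ± 0.28, to 0.369 of the DMSO level (adjusted p = 0.00601), and remained called without any 1 of the 12 arrays.

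Within arrays, the log2 ratio of Ldhb to Ldha changed by -2.97, -1.64 and -2.02 on the 3 BA+DMSO arrays relative to the DMSO mean. The 3 DMSO arrays lay between -0.21 and 0.12, so the ratio was lower on every challenged array. Subtracting a single value from all probes of an array leaves this ratio as it is. With 3 arrays against 3 an exact test cannot give a two-sided p under 0.1.

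Slc16a3, which encodes the lactate exporter of glycolytic cells, read 2.54, 2.51 and 2.32 in DMSO and 3.10, 3.41 and 4.18 in BA+DMSO. It had the largest rise of the 34 members, 1.11 ± 0.25 (2.16-fold, adjusted p = 0.013), and both of its probes were called. Every challenged array exceeded every DMSO array, and without DMSO array 3 the adjusted p was 0.0507. Pdk1, the kinase that keeps pyruvate from oxidation, read -1.73, -1.58 and -2.18 in DMSO and -1.59, -2.99 and -1.53 in BA+DMSO. The groups overlapped. It differed by -0.21 ± 0.35 (adjusted p = 0.703), and it was well above background on 2 of the BA+DMSO arrays.

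**Figure D2:**
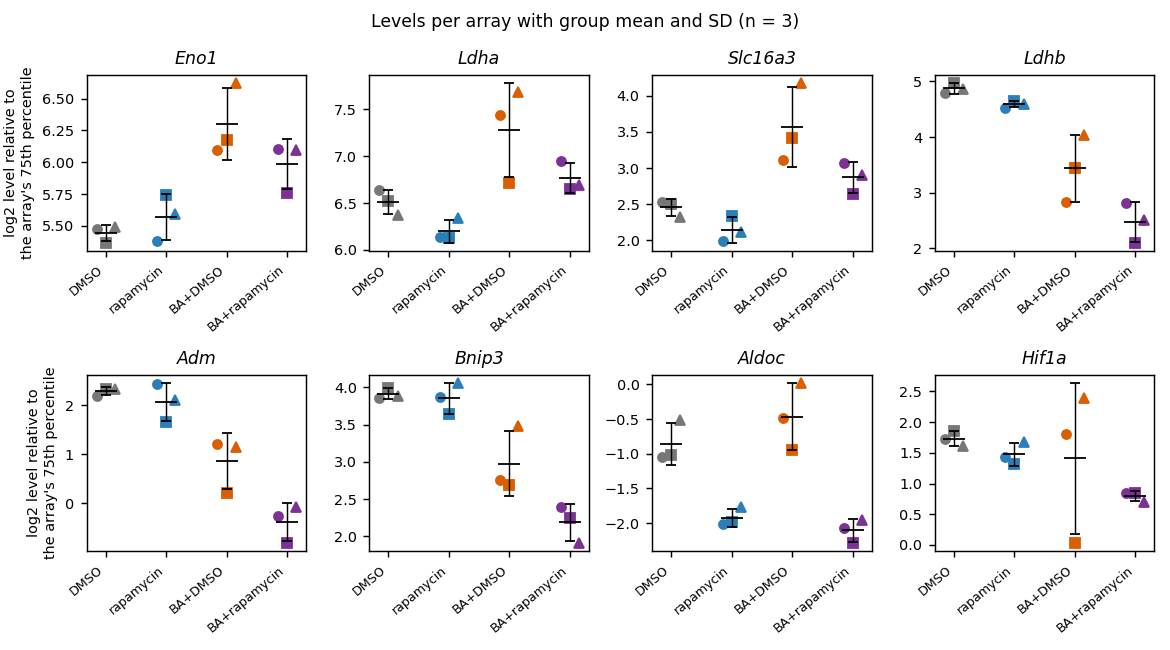
Log2 level relative to the array's 75th percentile for 8 members, 1 symbol per array, with the group mean and SD (n = 3). Eno1, Ldha and Slc16a3 are higher and Ldhb, Adm and Bnip3 lower on every BA+DMSO array than on the DMSO arrays, and Aldoc is lower in both groups given rapamycin.

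The factor itself was not called. Hif1a read 1.72, 1.86 and 1.62 in DMSO and 1.81, 0.04 and 2.39 in BA+DMSO, with a difference of -0.32 ± 0.45 (adjusted p = 0.651). Array 2 lay far below and array 3 above the DMSO arrays. The mRNA reading does not give the level of the protein, which hydroxylation also controls and which was not measured here. Egln1 and Egln3, the hydroxylases, differed by -0.70 ± 0.28 (adjusted p = 0.0951) and -1.26 ± 0.43 (adjusted p = 0.0616). Egln3 read -1.83, -2.40 and -1.82 in DMSO and -3.95, -3.76 and -2.10 in BA+DMSO, with only 1 of the 3 challenged arrays well above background. Its other probe differed by -0.31 (adjusted p = 0.661).

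Of the 9 hypoxia targets, 4 were called and all 4 were lower, beside 10.8% of all probes called lower. Adm, the vasodilator adrenomedullin, read 2.19, 2.33 and 2.34 in DMSO and 1.22, 0.21 and 1.16 in BA+DMSO. No challenged array reached a DMSO array, and the fall of 1.42 ± 0.30 brought it to 0.373 of the DMSO level (adjusted p = 0.00978). Bnip3, a mitochondrial protein of mitophagy and cell death, read 3.86, 3.997 and 3.88 in DMSO and 2.75, 2.69 and 3.47 in BA+DMSO. It fell by 0.94 ± 0.23 (adjusted p = 0.0173), and all 3 of its probes were called lower. The call was lost without DMSO array 2, DMSO array 3 or BA+DMSO array 1, with an adjusted p of up to 0.0728. Its relative Bnip3l read 4.04, 4.05 and 4.09 in DMSO and 3.60, 3.41 and 3.77 in BA+DMSO, without overlap. It fell by 0.47 ± 0.15 (adjusted p = 0.0467), with 3 of 4 probes called, and lost the call when any 1 of 10 arrays was left out, with an adjusted p of up to 0.138, and with title date as a random block (adjusted p = 0.0574).

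Ndrg1, a stress gene of differentiating cells, read 4.03, 4.07 and 4.39 in DMSO and 3.32, 3.40 and 3.02 in BA+DMSO. It fell by 0.91 ± 0.19 (adjusted p = 0.00762), the groups did not overlap, and the call held without any 1 of the 12 arrays. Vegfa, the endothelial growth factor, read 0.56, 0.64 and 0.97 in DMSO and 1.28, 0.58 and 0.93 in BA+DMSO. The groups overlapped, and it differed by 0.21 ± 0.28 (adjusted p = 0.635), and its other probe by 0.97 (adjusted p = 0.108). Car9, a carbonic anhydrase that is a common marker of hypoxia, differed by 0.77 ± 0.32 (adjusted p = 0.114). Ankrd37 read -1.41, -1.44 and -2.08 in DMSO and -2.78, -1.71 and -0.87 in BA+DMSO, and the groups overlapped. The collagen hydroxylases P4ha1 and P4ha2 differed by 0.49 and 0.30 and were not called.

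To see whether these differences also appeared in mice given rapamycin, BA+rapamycin was compared with rapamycin, groups that share no array with the first comparison. Both comparisons, however, use the same estimate of the spread from all 12 arrays, so their p-values are not independent. Without BA+DMSO array 2, which is in neither group compared here, 22 members were called, where 56.9% of all probes were. Adm, Ldhb, Bnip3 and Pfkm fell by 1.54 to 2.45 on the log2 scale, Egln3 was lower with only a bound to its size, and Eno2, Slc16a3, Gapdh, Pfkfb4 and Hk1 rose by 0.48 to 0.91. In all 16 of the 34 members were called, 5 higher and 11 lower, where 41.7% of all tested probes were called, 18.9% higher and 22.9% lower. With quantile normalization the counts were 3 and 12, beside 41.4% of all probes. With normexp they were 3 and 15, beside 62.4% of all probes, 10272 higher and 7085 lower. With the percentile over probes detected on all arrays they were 8 and 7, beside 41.4%, 6538 higher and 4969 lower. The median of the members was -0.36, against -0.08 over all probes. Of the 11 members called without rapamycin 8 were also called here (72.7%), and they make up 50% of the 16. All 8 had the same direction. Over all tested probes, those called in both comparisons were 81.5% of the first and 40% of the second, and 99.8% of them had the same direction. Eno1, Ldha and Pkm2 were called only without rapamycin at this threshold; here they differed by 0.41, 0.57 and 0.38 (adjusted p = 0.0972, 0.0708 and 0.0695), and their interaction was not called.

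**Figure D3:**
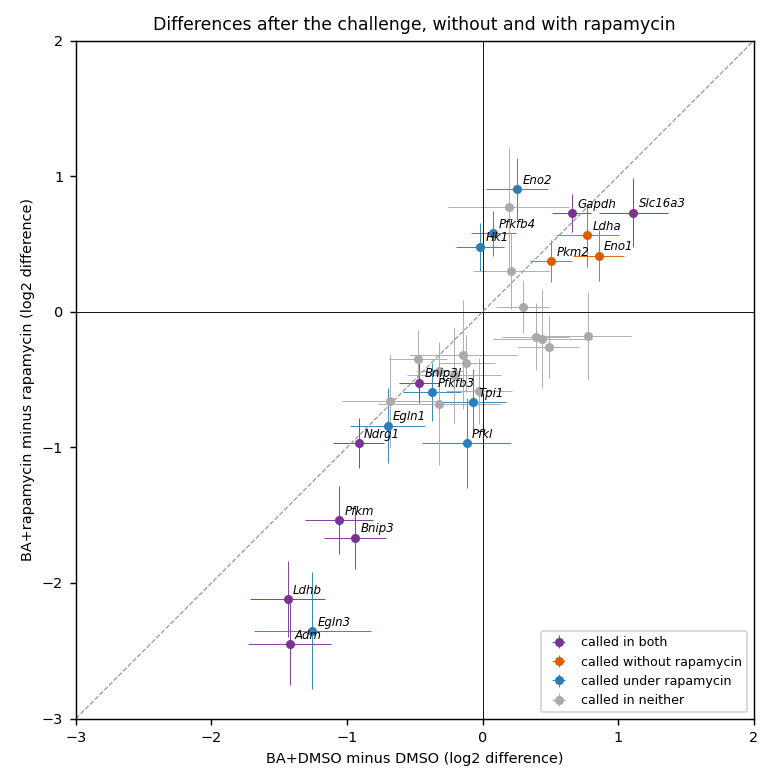
Log2 difference of each of the 34 tested members after the challenge without rapamycin (horizontal) and with rapamycin (vertical), with standard errors, the dashed line marking equal differences. The 8 members called in both comparisons lie in the lower left or upper right, and Ldhb, Egln3, Adm, Bnip3 and Pfkm lie below the line. The Egln3 point is a signal that was not well above background in BA+rapamycin.

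The members with the largest falls were low on every BA+rapamycin array. Ldhb read 4.53, 4.65 and 4.60 in rapamycin and 2.82, 2.11 and 2.50 in BA+rapamycin, a fall of 2.12 ± 0.28 (adjusted p = 0.000558). Adm read 2.44, 1.66 and 2.11 against -0.26, -0.81 and -0.07, a fall of 2.45 ± 0.30 (adjusted p = 0.000428). Bnip3 read 3.87, 3.64 and 4.05 against 2.40, 2.25 and 1.91, a fall of 1.67 ± 0.23 (adjusted p = 0.000743). In each of these 3 genes the groups were far apart relative to their spread. Pfkm read 3.60, 3.68 and 3.69 against 2.39, 1.76 and 2.21, a fall of 1.54 ± 0.25 (adjusted p = 0.00161). Ndrg1 read 4.42, 4.63 and 4.64 against 3.41, 3.86 and 3.52, a fall of 0.97 ± 0.19 (adjusted p = 0.0033). Neither gene's groups overlapped. Pfkl read 0.57, 0.74 and 0.44 against -0.02, -0.50 and -0.63, a fall of 0.97 ± 0.33 (adjusted p = 0.037). The Pfkl call was lost when any 1 of 8 arrays was left out, with an adjusted p of up to 0.112, with slide as a fixed block and on the second slide alone. Bnip3l read 4.34, 4.26 and 4.25 against 3.79, 3.66 and 3.83, a fall of 0.52 ± 0.15 (adjusted p = 0.0178). Tpi1, which encodes triose phosphate isomerase, read 5.14, 5.38 and 5.39 against 4.80, 4.45 and 4.65, a fall of 0.67 ± 0.24 (adjusted p = 0.0471). Pfkfb3 read 2.76, 2.53 and 2.91 against 2.19, 1.84 and 2.40, a fall of 0.59 ± 0.21 (adjusted p = 0.0436). Within each of these 3 genes the groups did not overlap. When 1 array was left out, the call was lost in 3 of 12 fits for Bnip3l, in 10 for Tpi1 and in 9 for Pfkfb3.

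Among the members that rose, Eno2 read 0.85, 1.26 and 0.86 in rapamycin and 1.95, 1.83 and 1.90 in BA+rapamycin. The groups were well apart, with a rise of 0.91 ± 0.23 (adjusted p = 0.0109). Slc16a3 read 1.99, 2.33 and 2.11 against 3.07, 2.65 and 2.90, again without overlap (0.73 ± 0.25, adjusted p = 0.0396). That call was lost when any 1 of 9 arrays was left out, with an adjusted p of up to 0.115. Pfkfb4 read 1.01, 1.01 and 0.82 against 1.74, 1.55 and 1.29, a rise of 0.58 ± 0.17 (adjusted p = 0.0186) that was lost without any 1 of 3 arrays. These groups did not overlap either.

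Egln3 read -2.27, -2.17 and -2.16 in rapamycin and -5.05, -4.55 and -4.05 in BA+rapamycin, where it was not well above background on any array. It was therefore at least 1.41-fold lower than in rapamycin, and the measured group means were -2.20 and -4.55 (adjusted p = 0.00272). With normexp background correction its sign turned, to 0.13 (adjusted p = 0.438). Egln1 read -1.15, -1.34 and -1.01 against -2.14, -1.90 and -1.98. It fell by 0.84 ± 0.28 (adjusted p = 0.0317), and normexp turned it too, to 0.046. The Egln1 call was lost when any 1 of 6 arrays was left out, with an adjusted p of up to 0.104, with slide as a fixed block and on the second slide alone.

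Within the slide that holds 2 rapamycin arrays and all 3 BA+rapamycin arrays, 6 members were called, all lower: Adm, Bnip3, Egln3, Ldhb, Ndrg1 and Pfkm. There Adm, Bnip3, Ldhb, Ndrg1 and Pfkm fell by 2.27, 1.66, 2.15, 1.04 and 1.57, Egln3 has only a bound, and 11.8% of all probes were called. These 6 differences were therefore seen within 1 slide. Array brightness ran from 257 to 337 in rapamycin and from 74.6 to 109 in BA+rapamycin, without overlap. Brightness and challenge therefore cannot be told apart in this comparison, and a covariate can take out the group difference itself. With brightness as a covariate only Ndrg1 of the 6 was called, and 5 members were called in all, 3 higher and 2 lower, where 6.42% of all probes were. Slc16a3, Ldha and Gapdh were higher, by 1.502, 1.44 and 0.97, and Ndrg1 and Pfkp lower, at -1.43 and -1.21, where Pfkp had differed by 0.77 without the covariate. Ldhb, Adm, Bnip3 and Pfkm then differed by -1.44, -1.57, -1.02 and -0.87 (adjusted p = 0.0743, 0.0615, 0.083 and 0.179). Some others changed sign with the scaling. Gapdh read 7.84, 8.02 and 7.97 against 8.68, 8.62 and 8.72 and rose by 0.73 ± 0.14 (adjusted p = 0.00376), but it differed by -0.019 after quantile normalization. Hk1 read 7.28, 7.22 and 7.21 against 7.73, 7.82 and 7.60. It rose by 0.48 ± 0.18 (adjusted p = 0.0477), a call lost without any 1 of 9 arrays, and differed by -0.025 after that normalization. With title date as a random block Hk1, Pfkl and Pfkfb3 were not called (adjusted p = 0.0807, 0.0606 and 0.0992). Pfkl and Tpi1 turned in sign with array brightness as a covariate, to 0.032 and 0.32. Without rapamycin array 1, 2 or 3 the count was 9, 10 or 8, where 28.5%, 30.3% or 23.5% of all probes were called, and without BA+rapamycin array 1 or 2 it was 10 or 8, where 35.0% or 28.3% were.

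Adding rapamycin to the challenge, Aldoc was the only member called. This aldolase read -0.48, -0.94 and 0.02 in BA+DMSO and -2.06, -2.28 and -1.96 in BA+rapamycin. It fell by 1.64 ± 0.25, to 0.321 of the BA+DMSO level (adjusted p = 0.0265), where 0.281% of all tested probes were called. The groups were well apart, although only 2 of the 3 BA+rapamycin arrays were well above background. With normexp the difference was -0.69 and not called (adjusted p = 0.245). The call was lost when any 1 of 8 arrays was left out, with an adjusted p of up to 0.111 and a difference of -1.88 to -1.39.

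Aldoc was also low in unchallenged mice given rapamycin. It read -1.04, -1.02 and -0.51 in DMSO and -2.01, -1.98 and -1.77 in rapamycin. The groups did not overlap, and the difference of -1.06 ± 0.25 had an unadjusted p of 0.00122 and an adjusted p of 0.554. In this comparison no member and 1 probe of all were called (0.0036%), and Aldoc was the only member with an unadjusted p under 0.05. The interaction of -0.57 ± 0.35 was not called (adjusted p = 0.737). Within arrays, the log2 ratio of Aldoc to Aldoa changed by -0.96 ± 0.12 (SD, n = 3) in rapamycin and by -0.76 ± 0.17 in BA+rapamycin, and by 0.51 ± 0.14 in BA+DMSO, relative to the DMSO mean. The first 2 groups lay wholly below the other 2. The BA+DMSO comparisons with DMSO and with BA+rapamycin share the BA+DMSO arrays.

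**Figure D4:**
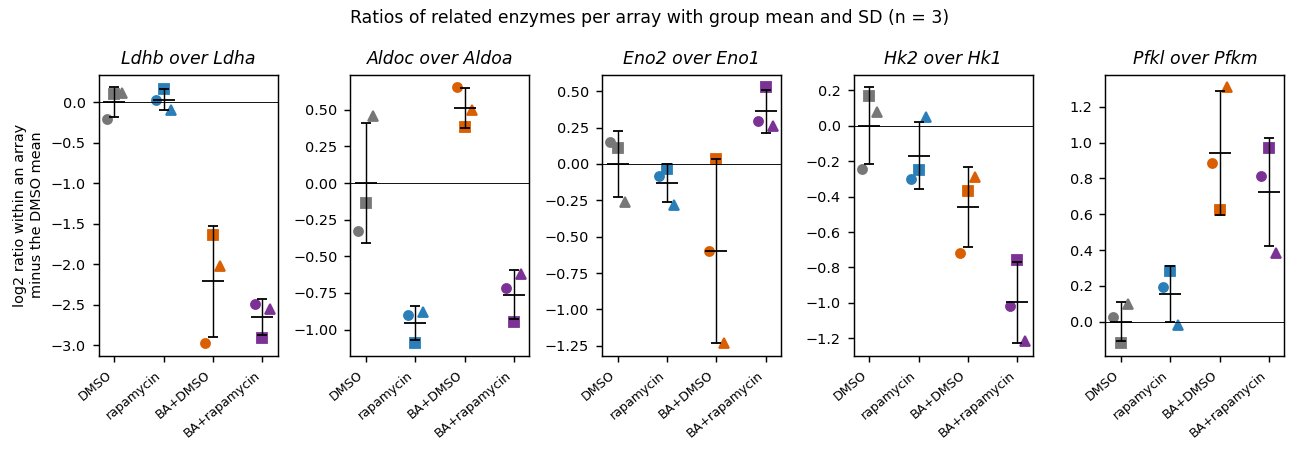
Within-array log2 ratio of 5 pairs of related enzymes minus its DMSO mean, 1 symbol per array, with group mean and SD (n = 3). Ldhb over Ldha is low in both challenged groups and Aldoc over Aldoa in both groups given rapamycin.

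For other members, rapamycin under challenge gave differences that did not pass. Of the 34 members 25 had a negative difference, with a median of -0.34 against -0.01 over all probes, and 16 had an unadjusted p under 0.05, as did 20.1% of all probes. Adm differed by -1.24 ± 0.30 (adjusted p = 0.0957), Ldhb by -0.96 ± 0.28 (adjusted p = 0.13) and Bnip3 by -0.78 ± 0.23 (adjusted p = 0.133). Each was thus lower again in the direction of the challenge. Slc16a3 differed by -0.69 ± 0.25 (adjusted p = 0.195) and Ldha by -0.52 ± 0.23 (adjusted p = 0.245). Hk1 read 7.36, 6.71 and 7.09 in BA+DMSO and 7.73, 7.82 and 7.60 in BA+rapamycin, the opposite direction (0.66 ± 0.18, adjusted p = 0.111), and its other probes differed by -0.06 and -0.58. Slc2a1 and Vegfa differed by -0.27 and -0.14.

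The count for rapamycin under challenge depended on a single array. Without BA+DMSO array 2, 17 of the 34 members were called, 3 higher and 14 lower, where 39.9% of all tested probes were called. The members' count is to be set beside that share. Among the 14 were Pgk1, Hif1a, Pdk1, Pgam1, Tpi1 and Ldha, which fell by 1.37, 1.30, 1.06, 0.98, 0.97 and 0.80, and Hk1, Eno2 and Pfkp rose. The count was 2 without BA+DMSO array 1, where 0.806% of all probes were called. It was 0 without BA+DMSO array 3, DMSO arrays 1 or 2, rapamycin arrays 1 or 2, or any 1 BA+rapamycin array. In those fits 0.108% to 0.259% of all probes were called. The interaction gave no call among the members or among all probes (0%), with 3 members at an unadjusted p under 0.05, beside 6.12% of all probes. Without BA+DMSO array 2 it gave 5 members, where 11% of all probes were called. Pgk1, Hif1a, Adm and Pgam1 were lower, and Eno2 was higher.

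BA+DMSO arrays differed from each other more than those of any other group. The median SD of a member was 0.468 in BA+DMSO, against 0.129 in DMSO, 0.13 in rapamycin and 0.205 in BA+rapamycin. Of the 34 members 25 were highest on array 3 and 20 lowest on array 2, and 15 were both. The median of the members relative to the DMSO mean was -0.42 on BA+DMSO array 2 and 0.28 on array 3, and from -0.45 to -0.38 on the BA+rapamycin arrays. Brightness moved with it, since the same order of 246, 132 and 78.1 intensity units held for arrays 3, 1 and 2. Brightness also differed by group: only array 3 of BA+DMSO lay within the DMSO range, and no BA+rapamycin array reached a rapamycin array. A covariate therefore cannot fully separate brightness from treatment. With brightness as a covariate the members' median turned to 0.36 for the challenge and to 0.35 under rapamycin. The challenge then had 11 members called, 8 higher and 3 lower, where 18.3% of all probes were called, 3114 higher and 1972 lower. Among the members, Eno1, Ldha and Slc16a3 were still higher (1.13, 1.27 and 1.55) and Ldhb and Ndrg1 still lower (-1.05 and -1.17). Pgk1, Aldoc, Pgam1 and Tpi1 were newly called higher (1.25, 0.83, 0.53 and 0.49) and Pfkp lower (-0.94), where Pgam1, Tpi1 and Pfkp had the opposite sign without the covariate. Adm, Bnip3, Bnip3l, Pfkm and Pkm2 kept their sign and were not called.

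**Figure D5:**
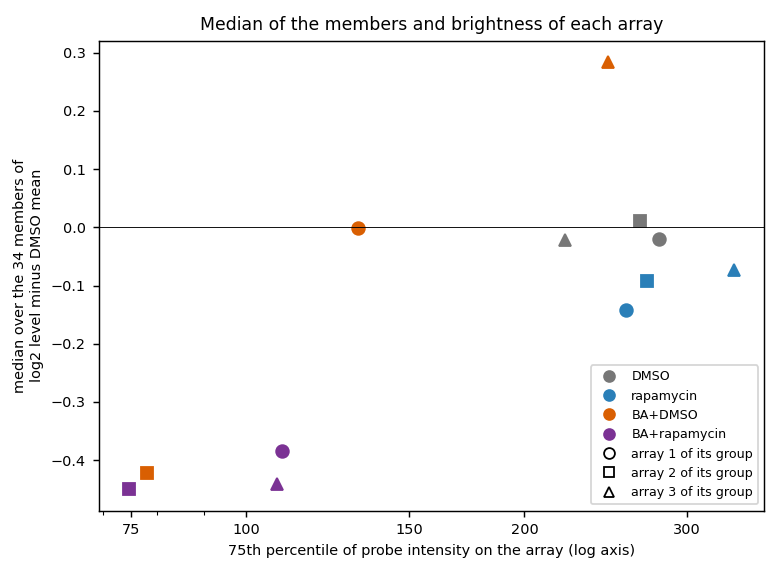
Median over the 34 tested members of the log2 level minus the DMSO mean, against the 75th percentile of probe intensity on a log axis, 1 symbol per array. The 4 dimmest arrays, BA+DMSO array 2 and the 3 of BA+rapamycin, have the 4 lowest medians, and BA+DMSO array 3 has the highest.

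Further genes of the pathway, listed by hand, also held both rises and falls. Of 20 other tested genes of glucose use, 8 were called after the challenge, 2 higher and 6 lower, beside 20.5% of all probes (9.65% higher and 10.8% lower). Slc2a6, a glucose transporter of leukocytes, rose by 3.66 (adjusted p = 6.08e-05), and Hk3, the hexokinase of myeloid cells, by 2.26 (adjusted p = 0.00188). Slc2a4, the insulin-regulated transporter of muscle and fat, fell by 1.58 (adjusted p = 0.00509), and Pfkfb2, Ldhd and Pdp1 fell by 1.28, 1.22 and 0.96. Of 32 other tested genes of the hypoxia response 10 were called, 4 higher and 6 lower, beside the same shares. Angptl4, a lipase inhibitor, rose by 3.79 (adjusted p = 0.00437), Bhlhe40 by 2.07, and the collagen hydroxylases Plod2 and Plod1 by 1.11 and 0.88. Ppp1r3c, Insig2, Gbe1 and Epas1, which encodes HIF-2 alpha, fell by 2.04, 1.11, 0.97 and 0.97. Under rapamycin the challenge called 13 of the 20, 2 higher and 11 lower, and 17 of the 32, 6 higher and 11 lower, beside 41.7% of all probes. No gene of either list was called by limma for rapamycin under challenge or alone. At an unadjusted p under 0.05 there were 5 and 3 of the 20, and 8 and 2 of the 32, beside 20.1% and 4.27% of all probes.

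Markers of other cells were read in the same arrays. After the challenge 5 of 6 macrophage and 5 of 5 tested cycling cell markers were called, all higher, 2 of 5 brown adipocyte, 1 of 6 endothelial and 1 of 3 neutrophil markers were called higher, and none of 6 smooth muscle or 3 striated muscle markers was called. The cycling cell markers Top2a and Cdk1 and the brown adipocyte marker Ucp1 were not well above background on any DMSO array. Ccnb1, another cycling cell marker, was well above background on 2 DMSO arrays and 1 rapamycin array. All of these passed the filter through a challenged group only, so the filter itself favoured a higher call for them. For Top2a and Ccnb1 this holds under rapamycin as well. Under rapamycin 5 of 6 macrophage and 5 of 5 cycling cell markers were again called higher after the challenge, as were 1 of 6 smooth muscle markers, Tagln (1.05, adjusted p = 0.013), and 1 of 5 brown adipocyte markers, Dio2 (1.73, adjusted p = 0.0017). Lower there were Cidea, another of the 5 brown adipocyte markers (-2.61, adjusted p = 0.00382), Acta1, 1 of 3 striated muscle markers (-1.48, adjusted p = 0.0143), and Pecam1 and Tek, 2 of 6 endothelial markers (-0.87 and -0.99, adjusted p = 0.0256 and 0.0415). None of 3 neutrophil markers was called there. The summed linear level of 6 macrophage markers, all well above background in every group, was 109 to 139 in DMSO, against 174 to 482 in BA+DMSO and 367 to 495 with rapamycin added. Itgam gave the largest signal in that sum, and it was not called in the challenge (adjusted p = 0.0906), where the other 5 were higher. Cd68, Emr1 and Mrc1 differed by -0.67, -0.81 and -0.35 between BA+rapamycin and BA+DMSO, against the direction of the sum, and none was called. The sum of 6 cycling cell markers was 1.25 to 1.40 in DMSO and 11.6 to 56.2 in BA+DMSO, with Aurkb not well above background on any array. In BA+rapamycin its median was 10.9 and its highest value 13.6, so it overlapped with BA+DMSO. All 5 tested cycling cell markers had a negative difference for rapamycin under challenge, and none was called (lowest adjusted p = 0.159). The sum of 6 striated muscle markers was 56.8 to 60.7 in DMSO. It was 17.6 to 62.3 in BA+DMSO, and with rapamycin added 15.5 to 25.6, with Myh4 not well above background on any array. Acta1 gave most of that sum and differed by -1.05 (adjusted p = 0.0842), while Tnnt3 differed by 0.22. Neutrophil, endothelial and brown adipocyte markers had sums of 0.879 to 1.47, 50.3 to 61.9 and 22.5 to 30.9 in DMSO and of 2.50 to 6.04, 73.4 to 75.8 and 39.8 to 58.2 in BA+DMSO, with Cxcr2, Mmp8, Ngp and Elovl3 not well above background on any array. Within those lists Dio2 rose by 1.72 and Cidea differed by -0.74, and Vwf differed by 0.49 and Pecam1 and Tek by -0.28 each. Smooth muscle markers summed to 2853 to 3074 in DMSO, against 2459 to 4835 in BA+DMSO and 3480 to 4516 with rapamycin added. The part of these cells in the changes of Ldhb, Pfkm, Slc16a3 and the other members was not tested.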

How the data were processed

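RNA from 12 aortas was labelled with Cy3 and hybridised by the authors to 1-colour Agilent mouse arrays. Per the file headers, Feature Extraction 10.7.1.1 gave the processed signal, a background-subtracted linear intensity, with flags of 0 or 1 per spot (other values used: well above background, saturated, outlier), and probes are placed on mm9. The deposited matrix holds linear intensity, and each column correlated at 0.999941 or more with processed signals that had been quantile normalized.

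Here outlier spots were removed, log2 intensities were averaged per probe and each array's 75th percentile was subtracted. The filter kept 27801 probes: those with a share of 0.5 or more of their spots flagged well above background, on every array of at least 1 group. One limma 3.58.1 model (R 4.3.3) held all 12 arrays with a mean per group. Tests were two-sided, with Benjamini-Hochberg adjustment over all tested probes, and the fit was tested on simulated data. A gene not well above background in 1 group has only a bound. The number of arrays limits precision, and array numbers within a group follow accession order. The p-values rest on the spread between arrays of separate mice, pooled over the groups, which holds array and slide differences as well. The series' design text equates the title word Pre with DMSO alone.

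Members, gene lists and tests were chosen with earlier results of these data known. Values in every array are given for the called members and, in the challenge without rapamycin, for a fixed set of central enzymes and hypoxia genes. The result of 1 marker list is not reported here. Promoters came from RefSeq (GRCm38.p6). Alternatives were other scalings, background corrections, filters, blocks, the mean of a gene's tested probes, a brightness covariate and leaving out each array. A fit on 1 title date alone was chosen after seeing the data.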

Additional observations from a re-analysis of the deposited data

How the results depend on the processing

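The 28 called differences of single members were recomputed 686 times in all: 461 kept direction and call, 216 kept direction and lost the call, and 9 turned in sign. For the challenge under rapamycin, quantile normalization turned Hk1 and Gapdh to -0.025 and -0.019, and the deposited matrix to -0.023 and -0.019. Normexp turned Egln1 and Egln3 to 0.046 and 0.13. The brightness covariate turned Pfkl, Tpi1 and Egln1 to 0.032, 0.32 and 0.067. The cause was not tested. No paired analysis was possible for all arrays because array numbers within a group follow accession order. Apart from title dates that some mice share across groups, no label ties a mouse of one group to a mouse of another. A title date holds 2 arrays of each group for rapamycin alone (DMSO and rapamycin arrays 2 and 3, on different slides). A fit on these 4 arrays, chosen after seeing the data, called 0 members and 0 of all probes, and the members' median was -0.078. Date was fitted as a random block, with each of the 2 arrays whose title has no date, BA+DMSO arrays 2 and 3, as a block of its own. Array weights did not converge and were not run.

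Without the filter all 35 members were tested, and 7 were called for the challenge, beside 7.65% of all probes. With the mean of all tested probes of a gene in place of the brightest, 9 members were called for the challenge. Of these 3 were higher and 6 lower, beside 21.3% of all genes called. Of the 34 members, 0 were called for the challenge with slide as a fixed block or with only the 2 groups of the contrast. The count was also 0 by the methods' rule (p under 0.01 before adjustment, with a fold above 4 or below 0.25). Of all probes 0.054%, 4.47% and 2.51% were called in these settings, in that order. Leaving out 1 array gave 4 to 15, with 7.38% to 38% of all probes called. For rapamycin under challenge the count was 2 with the percentile taken over probes detected on all arrays, where 1.7% of all probes were called. It was 0 with normexp, with slide as a fixed block, on slide 2 alone, with 2 groups or by the methods' rule. It was also 0 without the filter (of 35 members) and with probes detected on all 12 arrays (of 29). In these settings 0% to 0.187% of all probes were called. Leaving out 1 array gave 0 to 17, with 0.108% to 39.9% of all probes called. For the challenge under rapamycin it was 9 with slide as a fixed block, 6 on slide 2 alone, 25 with 2 groups, 5 with the brightness covariate and 3 by the methods' rule, where 28.5%, 11.8%, 56.4%, 6.42% and 5.14% of all probes were called. Leaving out 1 array gave 8 to 23, with 23.5% to 56.9% of all probes called, and 0 to 5 for the interaction. For rapamycin alone the count was 0 throughout.

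The members' median moved from -0.09 to 0.36 with the brightness covariate for the challenge. Leaving out 1 array gave -0.33 to 0.09, and -0.56 to -0.14 for rapamycin under challenge. For rapamycin alone it was -0.11 and became -0.15 with quantile normalization, -0.072 with normexp, -0.14 with the deposited matrix, with slide as a fixed block and on slide 1 alone, and -0.18 with the brightness covariate. Leaving out 1 array gave -0.13 to -0.065. For the challenge under rapamycin it was -0.36 and became -0.48 with quantile normalization and with the deposited matrix, -0.40 with normexp, -0.18 with the percentile over detected probes, -0.45 with slide as a fixed block and on slide 2 alone, and 0.35 with the brightness covariate. Leaving out 1 array gave -0.45 to -0.34. The interaction's median was -0.26 and became -0.046 with the brightness covariate, and leaving out 1 array gave -0.47 to -0.071.

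For the challenge under rapamycin, the median of all probes was -0.08, and it was -0.18 with quantile normalization, 0.14 with normexp and 0.10 with the percentile over detected probes. Of all called probes 45.2% were higher, and 59.2% and 56.8% under the latter 2 settings. For rapamycin under challenge 25.6% were higher, against 36.4% with normexp and 69.1% with detected probes, where the median of all was 0.13. The consensus correlation was -0.13 for slide and 0.50 for title date as random blocks. With slide as a random block 15 members were called for the challenge, 6 higher and 9 lower, where 36.9% of all probes were called. With the date block 9 members were called for the challenge, without Ldha and Bnip3l, and 1 for rapamycin under challenge. For the challenge under rapamycin 14 were called, and Hk1, Pfkl and Pfkfb3 were not. Of all probes 19.1%, 1.65% and 40% were called in these comparisons, in that order. Signal on the dim challenged arrays limits Aldoc, Egln3, Egln1, Pdk1, Car9 and Slc16a1.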
